A study of Mus musculus with 12 samples.

Results

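The genes described here encode the replication-dependent histones, the linker histones of type H1 and the core histones of types H2A, H2B, H3 and H4. Members were chosen by symbol, as every gene on the array named H2ac, H2bc, H3c or H4c with a number, or H1f with a number that opens with a digit between 1 and 5. This gave 54 genes out of 19505 with a symbol, of which 5 were of type H1, 13 of type H2A, 15 of type H2B, 10 of type H3 and 11 of type H4. Where a gene had several probe sets, the one with the highest mean over the 12 arrays was to be selected on its measured values. Each of the 54 genes had 1 probe set, so that no measured level decided which was used. The gene group itself was taken up because its low day 3 values in these same arrays were already known. Its day 3 pattern is therefore given as a description and supports nothing.

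The samples were alveolar macrophages, the resident phagocytes of the airspaces, of male C57 Black mice. They were caught on magnetic beads through Siglec F, a surface lectin of alveolar macrophages that eosinophils also carry. The groups were mice with an intact liver and mice at 1, 3 and 7 days after surgical removal of 70% of the liver, with 3 Clariom S mouse arrays in each. The labels call the 3 samples of a group biological replicates and give no age, no number of mice per array and no operated group that kept its liver. An effect of the resection and an effect of the operation itself therefore cannot be told apart, and p-values measure the spread between these samples.

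Values are log2 signals normalised by the authors with RMA, and 1 unit is a doubling of signal. On each array the upper limit below which 95% of 5222 probe sets against introns lay, here called the intron limit, was between 5.01 and 5.69, and served as the measure of background. The median of all 22206 probe sets tested lay between 3.09 and 3.19 on every array. Exon controls stood apart from intron controls least well, with an area under the curve below 0.84, on replicate 2 of day 1, on replicate 1 of day 3 and on replicate 2 of day 7, called weakly separating below. Marker genes of alveolar macrophages were high in every group, with a list mean of 9.16 ± 0.14 in intact mice, 8.97 ± 0.47 at day 1, 8.96 ± 0.17 at day 3 and 9.22 ± 0.28 at day 7 (SD, n = 3 arrays each). Of the 15 such markers measured, 8 were lower than in intact mice at day 1, 11 at day 3 and 7 at day 7. Their median log2 differences were -0.02, -0.22 and 0.02.

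Most histone protein is made in S phase, when new DNA has to be wrapped. The clustered histone genes have no introns, and their mRNAs end in a conserved stem-loop in place of a poly(A) tail. Stem-loop binding protein and the U7 small nuclear ribonucleoprotein form that end, and the mRNAs are degraded quickly when DNA synthesis stops. Alveolar macrophages keep their number in part by dividing in the lung, so that a small cycling fraction is normal in this tissue. In human cells, some of these genes, among them those for H1-2 and H2BC4, can also give polyadenylated mRNA that does not depend on S phase.

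Of the 54 members, 20 and 25 lay in 2 blocks of chromosome 13, 8 on chromosome 3 and 1, H1f10, on chromosome 6. H1f10 matches the symbol rule but encodes H1x, a linker histone made outside S phase. H2ac1 and H2bc1 encode the testis forms of H2A and H2B. H3c14 and H3c15 had the same value on every array, so that the 54 members hold 53 distinct sets of values. Because histone genes of a type are nearly alike in their coding sequence, probes for a single member can also catch its relatives, and the members are not independent of each other. In bulk samples, fewer cells with a transcript and less transcript per cell cannot be told apart.

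Promoter windows of 300 bases, 250 before and 50 after the annotated start, were available for 49 members from RefSeq (GRCm38.p6). The other members are H2bc4, H2bc21, H3c1, H3c7 and H4c14. Windows are shown for members on which the results turn, 1 of each histone type with low day 3 values and H1f2, the member whose day 3 mean was higher than its intact mean. Capitals mark CCAAT (the CCAAT box), TATAAA (the TATA box), ATTTGCAT (the octamer known from H2B promoters) and AAACACA (the AC box of H1 genes), on either strand, and sequences read 5′ to 3′ along the gene.
H1f1, chr13:23763418-23763717, + strand: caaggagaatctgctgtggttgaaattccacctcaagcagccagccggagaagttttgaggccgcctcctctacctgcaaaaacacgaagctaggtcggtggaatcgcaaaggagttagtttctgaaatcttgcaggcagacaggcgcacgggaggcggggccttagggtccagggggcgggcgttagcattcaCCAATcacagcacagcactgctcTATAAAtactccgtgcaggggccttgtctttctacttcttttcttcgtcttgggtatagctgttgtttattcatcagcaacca
H2ac15, chr13:21753863-21754162, - strand: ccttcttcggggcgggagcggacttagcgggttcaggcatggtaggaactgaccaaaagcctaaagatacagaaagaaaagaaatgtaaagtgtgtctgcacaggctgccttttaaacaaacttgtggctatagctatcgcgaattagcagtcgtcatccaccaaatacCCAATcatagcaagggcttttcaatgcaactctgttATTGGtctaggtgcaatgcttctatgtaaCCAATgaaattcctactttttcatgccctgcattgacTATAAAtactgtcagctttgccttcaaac
H2bc14, chr13:21721794-21722093, + strand: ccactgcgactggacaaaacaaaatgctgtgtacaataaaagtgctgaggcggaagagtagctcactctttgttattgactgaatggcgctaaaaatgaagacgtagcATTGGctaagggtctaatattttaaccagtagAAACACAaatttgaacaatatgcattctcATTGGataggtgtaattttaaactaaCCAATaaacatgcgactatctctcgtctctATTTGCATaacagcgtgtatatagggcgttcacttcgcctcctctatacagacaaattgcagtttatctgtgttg
H3c6, chr13:23562336-23562635, - strand: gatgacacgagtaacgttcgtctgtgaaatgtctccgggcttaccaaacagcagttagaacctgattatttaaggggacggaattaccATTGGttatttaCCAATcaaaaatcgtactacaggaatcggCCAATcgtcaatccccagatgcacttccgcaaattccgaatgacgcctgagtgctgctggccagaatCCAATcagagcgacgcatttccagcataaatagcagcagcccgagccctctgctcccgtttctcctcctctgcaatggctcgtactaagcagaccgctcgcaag
H4c12, chr13:21750504-21750803, - strand: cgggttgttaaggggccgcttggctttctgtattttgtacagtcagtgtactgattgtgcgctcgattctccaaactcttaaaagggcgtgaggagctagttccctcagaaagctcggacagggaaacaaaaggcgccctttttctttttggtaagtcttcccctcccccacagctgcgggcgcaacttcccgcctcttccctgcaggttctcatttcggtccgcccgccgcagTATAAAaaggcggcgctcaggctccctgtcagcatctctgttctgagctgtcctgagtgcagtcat
H1f2, chr13:23738557-23738856, + strand: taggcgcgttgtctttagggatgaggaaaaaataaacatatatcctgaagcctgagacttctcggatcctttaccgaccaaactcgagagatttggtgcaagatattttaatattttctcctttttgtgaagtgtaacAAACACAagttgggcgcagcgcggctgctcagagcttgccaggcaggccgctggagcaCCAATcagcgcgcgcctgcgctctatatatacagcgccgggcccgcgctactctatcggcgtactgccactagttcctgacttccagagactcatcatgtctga

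Searched on both strands, CCAAT was present in 41 of the 49 histone windows (83.7%), against 37.4% of 32851 promoter windows of the same length. It was in all 13 H2A, all 13 H2B and all 8 H3 windows, in 4 of 5 H1 windows and in 3 of 10 H4 windows. TATAAA was in 28 of 49 windows (57.1%), against 13.6% of all windows, and 7 of the 10 H4 windows had it. These counts take a match at any position. In H4c4 it began 32 bases before the start, in H4c11 2 and in H4c12 16 bases before it. In H4c18, H4c9 and H4c6 it began 127, 137 and 250 bases before the start, and in H4c1 41 bases after it. The octamer was in 12 of 49 windows (24.5%), against 1.74% of all windows, and these were 6 H2A and 6 H2B genes. The windows are not all separate, as 7 pairs of an H2A and an H2B gene share 220 to 279 bases. A match in shared bases counts in both windows. The octamers of H2ac1 and H2bc1, of H2ac8 and H2bc8, and of H2ac12 and H2bc12 are such shared sites. AAACACA was in 7 of 49 windows (14.3%), against 7.18% of all windows, and 3 of the 5 H1 windows had it. No matches of different motifs overlapped in these windows, and a match describes the letters of the window, not a bound site. In H1f1 the CCAAT match began 56 bases and the TATAAA match 33 bases before the start. The H1f2 window had CCAAT at 54 bases and AAACACA at 112 bases before the start and no TATAAA.

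**Figure D1:**
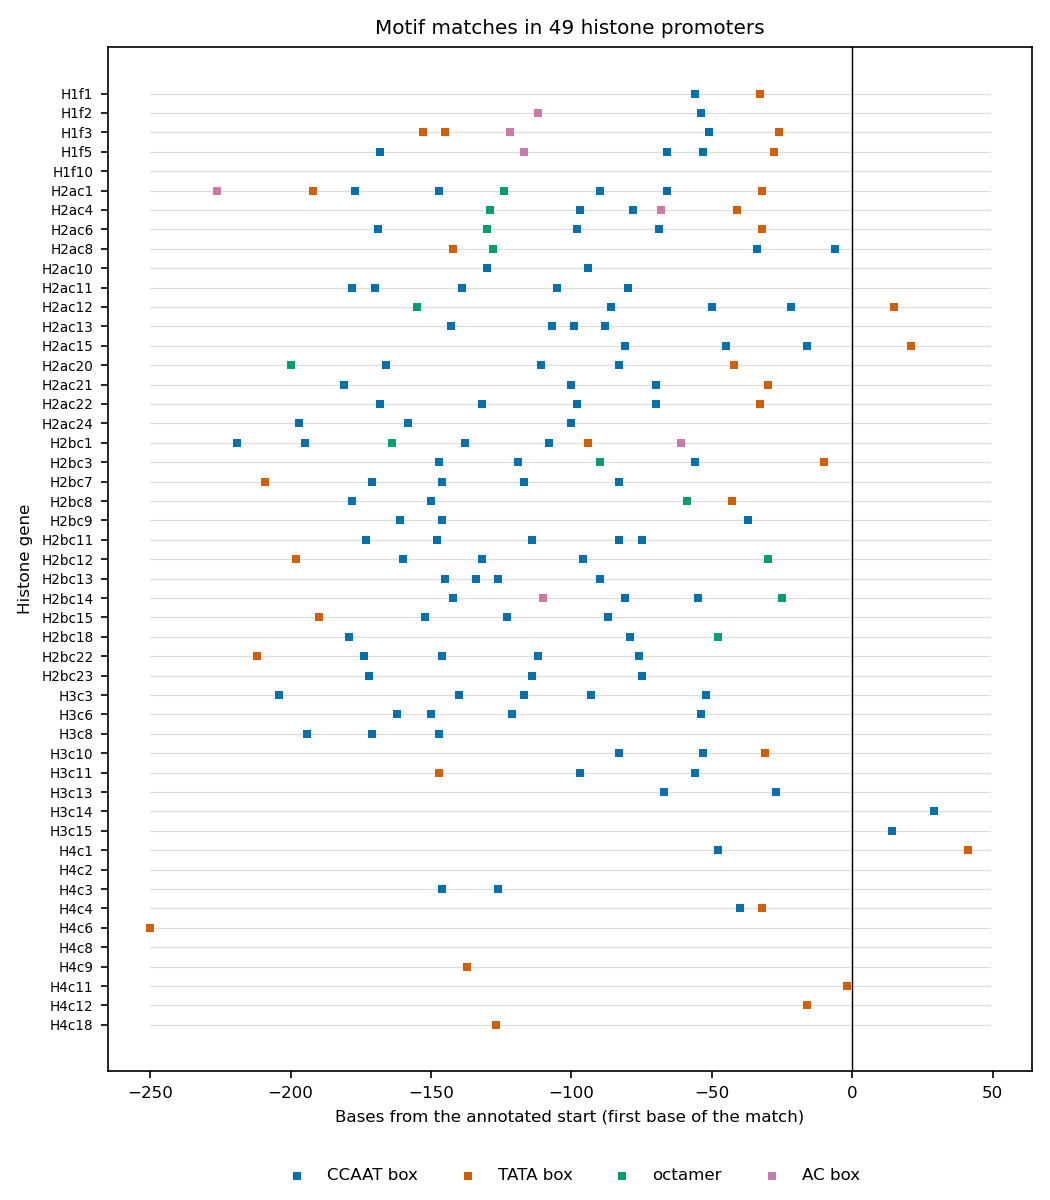
Positions of 4 motifs in the promoter windows of 49 histone genes. Each row is a gene, ordered from H1 to H4, the horizontal axis is the distance of the first base of a match from the annotated start in bases, and the colours name the motif. CCAAT matches fill the H2A, H2B and H3 rows and are in 3 of 10 H4 rows.

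At day 3 after liver resection the histone genes had their lowest signals of the time course. The mean over the 54 members was between 5.96 and 6.05 on the intact arrays, 5.19 and 5.77 at day 1, 5.04 and 5.47 at day 3, and 5.81 and 6.25 at day 7. Every day 1 and day 3 array thus lay below every intact array, and the day 7 arrays spanned the intact ones. By group mean, 45 of 54 members were lowest at day 3, 9 were lowest at day 1, and none was lowest in intact mice or at day 7. The highest group mean was at day 7 for 29 members, in intact mice for 19, at day 1 for 5 and at day 3 for 1. No member passed an adjusted p of 0.05 in any of the 6 comparisons (limma over all probe sets).

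**Figure D2:**
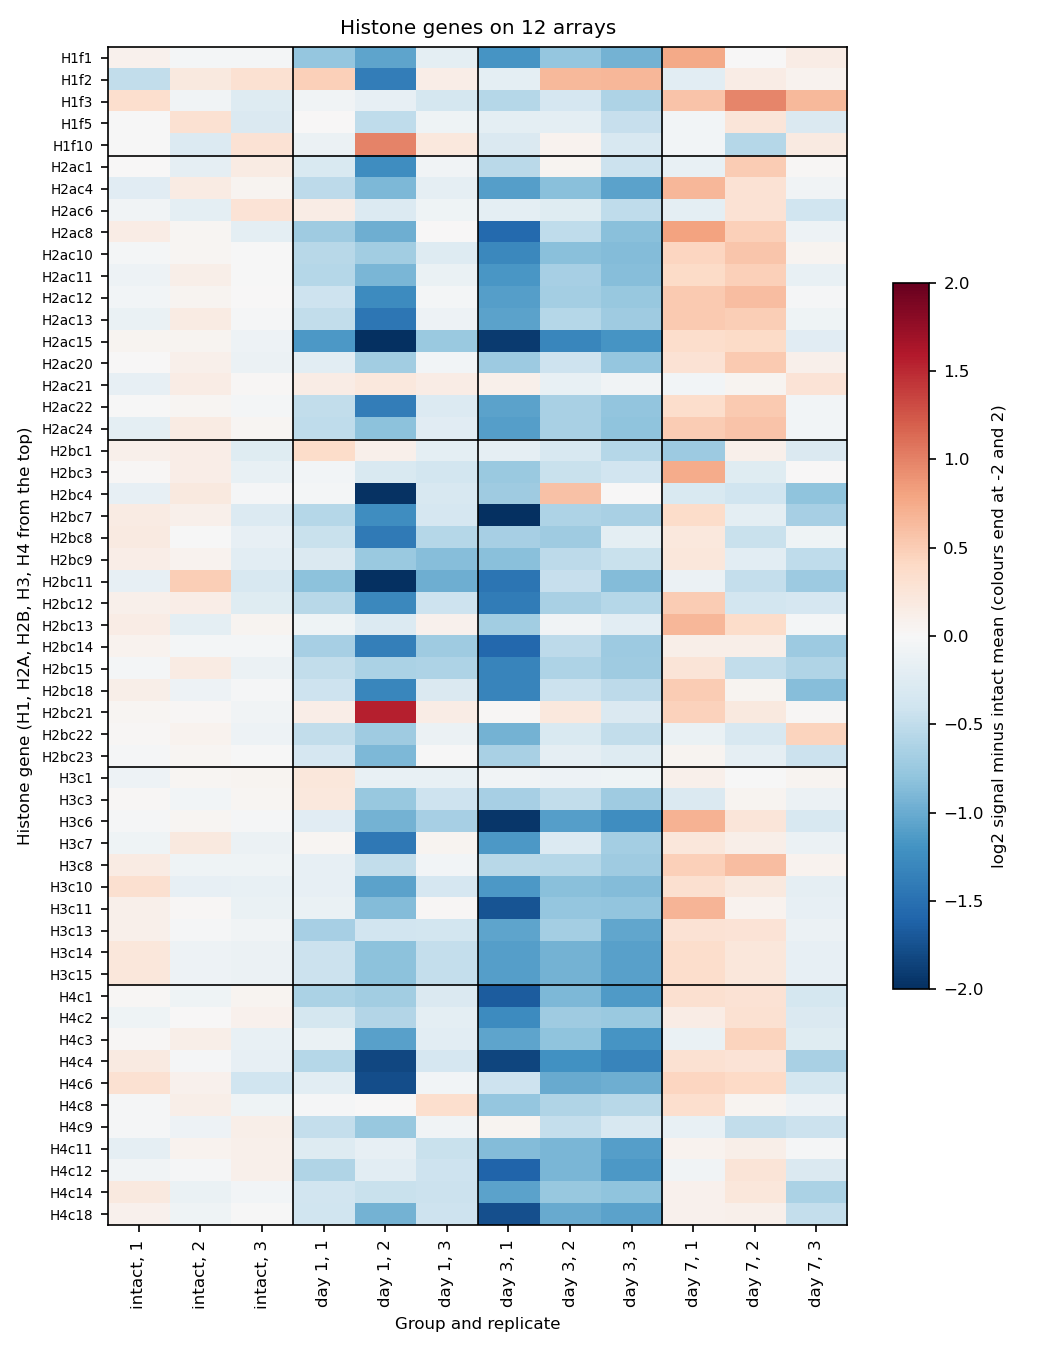
Signal of the 54 histone genes on the 12 arrays. Rows are genes by type, columns are arrays by group and replicate, and colour is the log2 signal minus the gene's intact mean, with colours ending at -2 and 2. The 3 day 3 columns are blue in most rows, day 1 replicate 2 is bluer than the other day 1 arrays, and H1f2, H1f10, H2bc4 and H2bc21 break the pattern.

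Of the 54 members, 37 had a mean above the intron limit in at least 1 group, 23 had one in all 4 groups and 17 had one in none. Members that are above the limit only where they are high had to differ, so the counts below run over all 54. The dimmest members, H3c1 and H2ac21, stayed between 1.91 and 2.36 on every array. Over the 12 arrays, 24 of the 54 members correlated above 0.9 (Pearson's r) with the mean of the other members, 45 correlated above 0.5 and 9 lay below 0.5. These are descriptions over 12 arrays that share one normalisation and, for relatives, probe sequence.

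In the comparison of day 3 with intact mice, 53 of the 54 members had a lower mean, with a median log2 difference of -0.84, while the median over all probe sets was 0.0015. This median corresponds to a 1.79-fold lower signal. The day 3 arrays all lay below the intact arrays for 42 members, and 6.68% of all probe sets did the same. An unadjusted p below 0.05 with a lower day 3 mean was reached by 37 members and by 2.5% of all probe sets. After adjustment 0.0045% of all probe sets (1 of 22206) passed, and no member did, with a smallest adjusted p of 0.139 for H4c11. Day 3 replicate 1, another weakly separating array, was the lowest of its group for 38 members, and without it the median was -0.64. Since the group was taken up for these values, they stand as measured and as no more. The outcome of the test depended on how arrays were weighted. With array weights 26 members passed as lower (0.883% of all probe sets did), and without the 3 weakly separating arrays 10 members passed (0.824% of all probe sets). Those 10 are among the 26, and 6 of them are of type H4. Both counts hold H3c14 and H3c15, which have identical values, as separate members. The second fit had fewer day 3 arrays, since it left out day 3 replicate 1.

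At day 1 against intact mice, 49 members had a lower mean, and the median log2 difference was -0.51, against -0.01 over all probe sets. For 25 members the day 1 arrays all lay below the intact arrays, as they did for 8.94% of all probe sets. The unadjusted p was below 0.05 with a lower mean for 20 members and for 5.9% of all probe sets, and 0% of all probe sets passed after adjustment. Day 1 replicate 2 was the lowest of its group for 43 members and also the array with the weakest exon to intron separation. Without it the median was -0.30. Its part in the day 1 values was otherwise not tested.

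At day 7 against intact mice, the shares of members without overlap or with a low p-value were no larger than those of all probe sets. Of the 54 members 33 had a higher day 7 mean, and the median log2 difference was 0.08. For 2 members, H1f3 and H2ac10, the day 7 arrays all lay above the intact arrays, which 6.11% of all probe sets also did. Only H1f3 had an unadjusted p below 0.05 with a higher mean, against 1.95% of all probe sets, and 0.018% of all probe sets passed after adjustment, no member among them. H2A and H2B proteins form a dimer in the nucleosome. Of the 13 H2A members 12 had a higher day 7 mean (median 0.29), while of the 15 H2B members 12 had a lower one (median -0.16). Relative to the intact arrays, the mean H2A level minus the mean H2B level was 0.15, 0.61 and 0.32 on the 3 day 7 arrays, and -0.11, -0.03 and 0.13 on the 3 intact arrays. The difference between these types was not tested. H2bc4 was the only H2B member with a mean above the intron limit in all 4 groups.

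**Figure D3:**
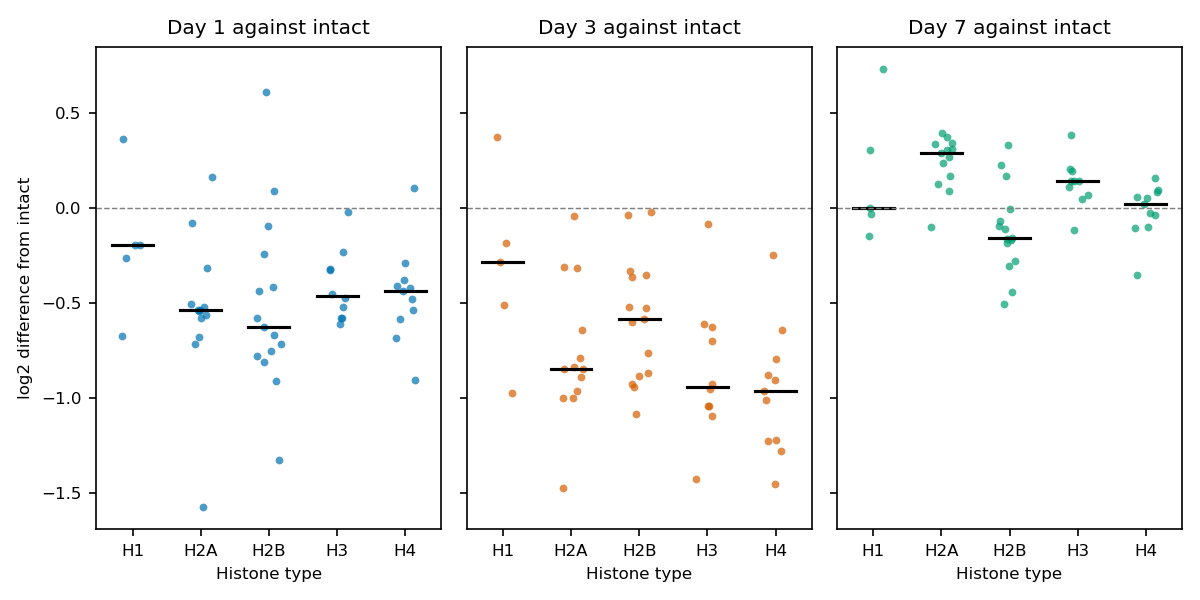
Differences from intact mice by histone type. Each point is 1 member, the vertical axis is the log2 difference of group means (day minus intact), the panels are day 1, day 3 and day 7, and black bars are medians. At day 3 the bars lie at -0.28 for H1, -0.85 for H2A, -0.58 for H2B, -0.94 for H3 and -0.96 for H4, and at day 7 H2A lies above and H2B below 0.

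Day 3 lay below day 1 for 45 members by mean and without overlap for 15 (6.24% of all probe sets), with an unadjusted p below 0.05 for 12 (3.28%) and a median log2 difference of -0.31. All 10 H3 members and 10 of 11 H4 members were lower at day 3 than at day 1, and their medians were -0.44 and -0.55. For H2B, 10 of 15 members were lower and the median was -0.12. Day 7 lay above day 3 for 51 members by mean and without overlap for 36 (4.84%), with an unadjusted p below 0.05 for 38 (2.03%) and a median of 0.93, a 1.91-fold higher signal. Day 7 lay above day 1 for 48 members by mean and without overlap for 17 (4.55%), with an unadjusted p below 0.05 for 26 (3.81%) and a median of 0.56. In each of these 3 comparisons 0% of all probe sets passed after adjustment, and the smallest adjusted p of a member was 0.310, 0.114 and 0.573 in the order given. With array weights, 3 members (H1f3, H2ac10 and H4c11) passed as higher at day 7 than at day 3, among 0.018% of all probe sets. These comparisons share arrays with those against intact mice, so their counts do not add to them.

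Among the linker histones, which bind DNA where it enters and leaves the nucleosome, members did not share one course. H1f1 had 4.23, 4.10 and 4.11 in intact mice, 3.37, 3.10 and 3.96 at day 1, 2.96, 3.37 and 3.20 at day 3, and 4.91, 4.15 and 4.29 at day 7. The day 1 and day 3 arrays were all below the intact ones, but H1f1 stayed under the intron limit on all 12 arrays, so its size of difference is uncertain. Its log2 difference at day 3 against intact mice was -0.97 (SE 0.25, adjusted p = 0.522).
H1f3 had 5.10, 4.69 and 4.51 in intact mice, 4.70, 4.60 and 4.41 at day 1, 4.19, 4.43 and 4.14 at day 3, and 5.34, 5.74 and 5.41 at day 7. Its day 7 arrays were the highest of the series and the day 3 arrays lay below the intact ones, with only 2 arrays above the intron limit. The log2 difference at day 7 against day 3 was 1.24 (SE 0.19, adjusted p = 0.114), and at day 7 against intact mice it was 0.73 (SE 0.19, adjusted p = 0.389).
H1f5 was within 3.27 and 4.08 on every array, and its groups overlapped in each comparison. H1f10, the H1x gene, lay between 2.14 and 3.71, with its highest value on day 1 replicate 2.

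H1f2 did not share the low day 3 values. It had 6.10, 6.79 and 6.91 in intact mice, 7.07, 5.21 and 6.73 at day 1, 6.41, 7.25 and 7.26 at day 3, and 6.38, 6.75 and 6.66 at day 7. All 4 groups overlapped, and 11 of 12 arrays were above the intron limit. Its day 3 mean was 6.97 ± 0.49 and its intact mean 6.60 ± 0.43 (SD, n = 3 each), a log2 difference of 0.38 (SE 0.42, adjusted p = 1.00 in limma). Its r with the mean of the other members was 0.13. H2bc4 likewise had 7.57, 8.87 and 8.29 at day 3, against 8.12, 8.47 and 8.25 in intact mice, and r was 0.33. Its log2 difference at day 3 was -0.04 (SE 0.44), and H2bc4 was above the intron limit on all 12 arrays.

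**Figure D4:**
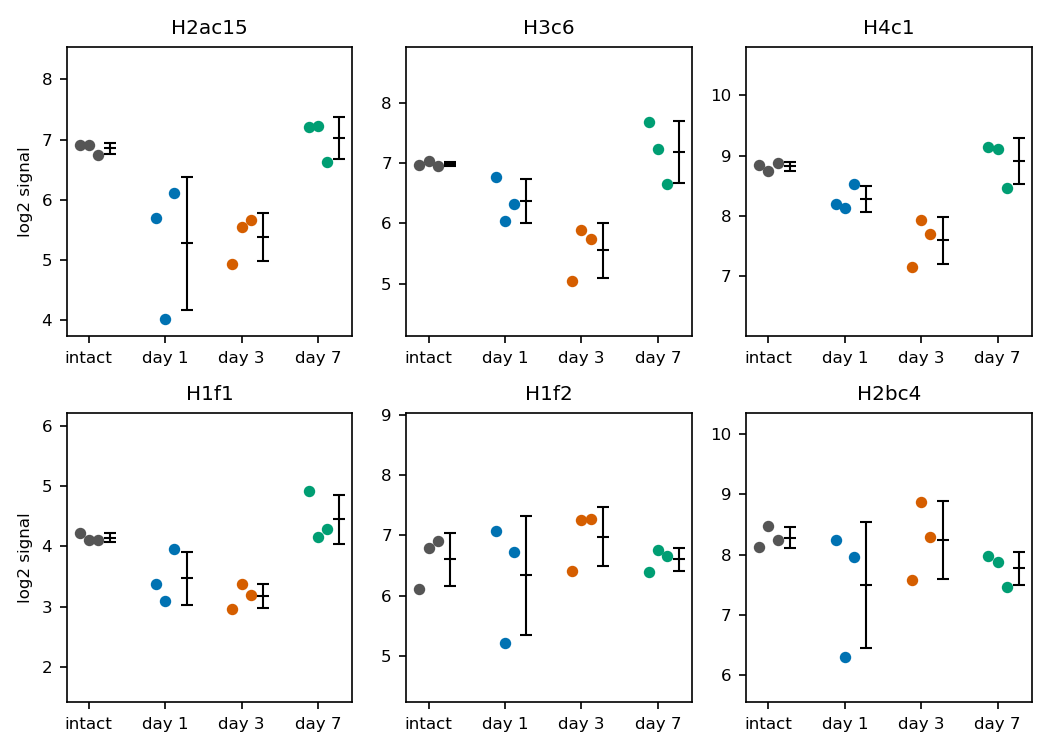
Signal of 6 histone genes on every array. The vertical axes are log2 signal over spans of equal height, coloured points are arrays, and black bars are group means with SD (n = 3). H2ac15, H3c6, H4c1 and H1f1 are low at day 3 and back at or above intact values on most day 7 arrays, while H1f2 and H2bc4 overlap between intact mice and day 3.

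The H2A genes had a median log2 difference from intact mice of -0.54 at day 1 and -0.85 at day 3, where all members had -0.51 and -0.84. H2ac15 had 6.91, 6.90 and 6.75 in intact mice, 5.70, 4.03 and 6.11 at day 1, 4.94, 5.55 and 5.67 at day 3, and 7.21, 7.23 and 6.62 at day 7. Its day 1 and day 3 arrays were all below the intact arrays, and day 1 replicate 2 was the lowest of all 12. At day 3 its log2 difference from intact mice was -1.47 (SE 0.42, adjusted p = 0.725), the largest of any member, and at day 1 it was -1.57 (SE 0.42, adjusted p = 0.296). H2ac10, with the smallest p of the H2A genes across the 4 groups (F test, adjusted p = 0.168), had 7.48, 7.56 and 7.51 in intact mice, 6.96, 6.82 and 7.26 at day 1, 6.22, 6.68 and 6.65 at day 3, and 7.94, 8.07 and 7.57 at day 7. Each group lay apart from every other on these arrays, day 3 lowest and day 7 highest. The log2 difference at day 7 against day 3 was 1.34 (SE 0.19, adjusted p = 0.114).
H2ac4 averaged 5.85 ± 0.15 at day 3 and 6.85 ± 0.20 in intact mice (SD, n = 3 each). H2ac11 and H2ac24 had day 3 differences from intact mice of -0.89 and -0.85, and for these 3 genes all day 3 arrays lay below the intact arrays. H2ac20 was between 8.23 and 8.58 at day 3, against 8.88 and 9.10 in intact mice. Of the H2A genes, 10 of 13 were lower at day 3 than in intact mice without overlap, as were 6.68% of all probe sets. The exceptions were H2ac1, H2ac6 and H2ac21. H2ac1, the testis form, H2ac6 and H2ac21 were under the intron limit on all 12 arrays.

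The H2B genes had a median log2 difference from intact mice of -0.63 at day 1 and -0.58 at day 3. H2bc14 had 5.53, 5.42 and 5.42 in intact mice, 4.80, 4.10 and 4.74 at day 1, 3.89, 4.93 and 4.73 at day 3, and 5.58, 5.58 and 4.73 at day 7. Its intact arrays were above all day 1 and day 3 arrays, and day 7 replicate 3 was as low as a day 3 array. H2bc15 averaged 5.41 ± 0.38 at day 3 and 6.30 ± 0.15 in intact mice (SD, n = 3 each), a log2 difference of -0.88 (SE 0.24, adjusted p = 0.613). H2bc11 was lowest at day 1, with 5.03, 3.68 and 4.88 there, against 5.69, 6.35 and 5.54 in intact mice, and its log2 difference was -1.33 (SE 0.36, adjusted p = 0.313). H2bc12 averaged 4.85 ± 0.46 at day 3 and 5.72 ± 0.20 in intact mice. Of the 15 H2B genes, 11 were lower at day 3 than in intact mice without overlap, as were 6.68% of all probe sets. H2bc1, the testis form, H2bc3, H2bc8, H2bc18, H2bc21, H2bc22 and H2bc23 stayed under the intron limit on every array. H2bc11, H2bc12 and H2bc14 were above it on 4, 6 and 5 arrays, so that sizes of difference in this type are uncertain. H2bc21 had its highest value, 4.32, on day 1 replicate 2.

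Several H2A and H2B genes sit head to head, and 7 such pairs had overlapping promoter windows. In the H2ac15 and H2bc15 pair, which share 263 bases of window, the day 3 differences from intact mice were -1.47 and -0.88, and the day 7 differences were 0.17 and -0.28. In the H2ac11 and H2bc11 pair, which share 252 bases, they were -0.89 and -0.93 at day 3 and 0.24 and -0.44 at day 7. The H2ac8 and H2bc8 pair, with 279 bases, had -0.96 and -0.52 at day 3 and 0.40 and -0.11 at day 7. Both partners were lower at day 3 in all 7 pairs, though H2ac1, H2bc1, H2bc8, H2bc22 stayed under the intron limit on every array. At day 7 the H2A partner was above and the H2B partner below the intact mean in 6 pairs, and the exception was the H2ac13 and H2bc13 pair, where both were above (0.31 and 0.33). Some of these differences were near 0, such as -0.005 (SE 0.24) for H2bc22 and -0.07 (SE 0.31) for H2bc12. In limma, no H2A or H2B member reached an unadjusted p below 0.05 at day 7 against intact mice.

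H3 genes encode a core histone whose tail carries many regulatory marks. H3c6 had 6.97, 7.03 and 6.95 in intact mice, 6.76, 6.04 and 6.32 at day 1, 5.04, 5.89 and 5.74 at day 3, and 7.68, 7.23 and 6.66 at day 7. Its day 3 arrays were below all others, by a log2 difference from intact mice of -1.43 (SE 0.29, adjusted p = 0.211). H3c14 and H3c15, with identical values, had 8.27, 7.95 and 7.92 in intact mice, 7.62, 7.22 and 7.56 at day 1, 6.95, 7.11 and 6.96 at day 3, and 8.40, 8.27 and 7.88 at day 7. Their day 3 arrays were below every day 1 array and these below every intact array. The day 3 difference from intact mice was -1.04 (SE 0.19, adjusted p = 0.187), and day 7 stood 1.18 above day 3 (SE 0.19, adjusted p = 0.114). H3c13 averaged 7.17 ± 0.21 at day 3 and 8.10 ± 0.09 in intact mice (SD, n = 3 each), and its values showed the same order. All 10 H3 genes were higher at day 7 than at day 3 without overlap (4.84% of all probe sets were). Of the 10, 9 were lower at day 3 than in intact mice without overlap (6.68% of all probe sets). These counts hold the identical H3c14 and H3c15 as separate genes. H3c1 and H3c7 stayed under the intron limit on every array.

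The H4 genes, which encode one of the most conserved proteins known, had the largest median difference at day 3, -0.96. H4c11 had 8.37, 8.63 and 8.65 in intact mice, 8.29, 8.39 and 8.10 at day 1, 7.68, 7.64 and 7.45 at day 3, and 8.61, 8.67 and 8.52 at day 7. Its 3 day 3 arrays lay apart, below the other 9, and its day 3 difference from intact mice was -0.96 (SE 0.15, adjusted p = 0.139). Day 3 was also below day 1, by a log2 difference of -0.67 (SE 0.15, adjusted p = 0.311). H4c1 had 8.85, 8.74 and 8.88 in intact mice, 8.20, 8.13 and 8.53 at day 1, 7.16, 7.93 and 7.69 at day 3, and 9.15, 9.11 and 8.46 at day 7. H4c12 had 7.26, 7.30 and 7.43 in intact mice, 6.73, 7.11 and 6.91 at day 1, 5.73, 6.41 and 6.19 at day 3, and 7.25, 7.59 and 7.04 at day 7. Both had every day 3 array below every day 1 array and every day 1 array below every intact array. Their day 3 differences from intact mice were -1.23 (SE 0.23) for H4c1 and -1.22 (SE 0.21) for H4c12, each with an adjusted p of 0.187. H4c18 averaged 6.21 ± 0.42 at day 3 and 7.49 ± 0.09 in intact mice. H4c9 was the H4 exception, with 4.89, 4.34 and 4.51 at day 3, against 4.80, 4.73 and 4.95 in intact mice, all under the intron limit.

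Genes that work with the histone genes were set beside them. Of 33 measured DNA replication genes, 26 were lower at day 3 than in intact mice (median log2 difference -0.25), 29 were higher at day 7 than at day 3 (median 0.36). None passed adjustment in limma in either, and an unadjusted p below 0.05 in that direction was reached by 1 and by 6 of them. Of all probe sets, 2.5% and 2.03% reached it. The mean of this list was 4.23 in intact mice and 3.99 at day 3, under the intron limit. Its sizes of difference are therefore uncertain and cannot be set against those of brighter histone genes. Pcna, the sliding clamp of replication, averaged 9.52 ± 0.05 at day 3 and 9.62 ± 0.12 in intact mice (SD, n = 3 each). E2f1, a transcription factor of S-phase entry, averaged 3.96 ± 0.49 at day 3 and 4.52 ± 0.12 in intact mice, under the intron limit. Between day 3 and day 1 the replication genes had a median difference of 0.01, with 16 of 33 lower. For a list under the intron limit this value is likewise uncertain, and it was not set against the histone genes.
Of 24 genes of G2 and mitosis, 23 were lower at day 3 than in intact mice (median -0.35). At day 7, 22 were higher than at day 3 (median 0.51). None passed adjustment in limma in either. An unadjusted p below 0.05 in that direction was reached by 4 and 10 of them (2.5% and 2.03% of all probe sets). The mean of this list was likewise under the intron limit, at 3.71 in intact mice and 3.33 at day 3. Ccnb2, a mitotic cyclin, had 4.48, 5.05 and 4.91 at day 3, against 5.69, 5.24 and 5.18 in intact mice. Mki67, a marker of cycling cells, had 7.28, 5.93 and 6.02 at day 3, against 7.46, 7.25 and 6.47 in intact mice. Its highest day 3 value was on replicate 1 and that array had the lowest histone mean.

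Of 17 genes for histone mRNA processing and decay, 11 were lower at day 3 than in intact mice, with a median of -0.06. Lsm11, a protein of the U7 particle, averaged 3.08 ± 0.04 at day 3 and 2.66 ± 0.18 in intact mice, under the intron limit. Among 19 histone chaperone genes 8 were lower, with a median of 0.04. Daxx, a chaperone for the H3.3 variant, averaged 4.71 ± 0.07 at day 3 and 5.30 ± 0.18 in intact mice. None of either list passed adjustment in any comparison, and at day 3 against intact mice an unadjusted p below 0.05 was reached by 0 and by 1 of them. Such a p with a lower day 3 mean was found for 2.5% of all probe sets. Variant histone genes, which are expressed outside S phase as well, had 10 of 12 lower at day 3 (median -0.16), with H1f10 counted here too, and 2 of them had an unadjusted p below 0.05. H2ax, the variant phosphorylated at DNA breaks, averaged 6.03 ± 0.15 at day 3 and 7.05 ± 0.13 in intact mice (SD, n = 3 each), a log2 difference of -1.02 (SE 0.32), and did not overlap. H2az1 averaged 8.80 ± 0.13 at day 3 and 8.88 ± 0.05 in intact mice.

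**Figure D5:**
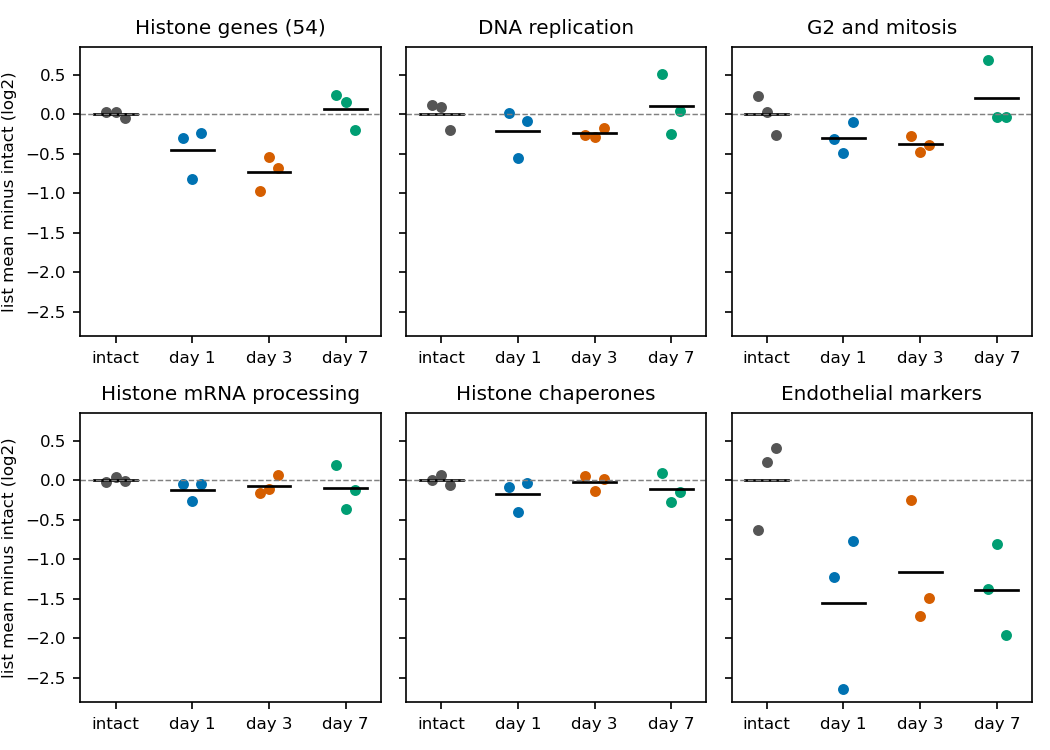
Mean level of 6 gene lists on each array relative to intact mice. The vertical axis is the list's mean log2 signal minus its mean over the 3 intact arrays, coloured points are arrays, and black bars are group means. The histone genes lie below intact at day 1 and day 3 and near it at day 7, and the endothelial markers lie below intact on most arrays of all 3 days.

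Across 18408 other genes, predicted genes left out, the 10 whose signal correlated best with the members' mean over the 12 arrays were Cfl1, Tmsb10, Mrgbp, U2af2, Pde6d, H2ax, Ccnb2, Elk1, Ube2c and Bhlhe40. Their Pearson's r ran between 0.859 for Bhlhe40 and 0.915 for Cfl1, and Cfl1 was the only gene above 0.9. Cfl1, the actin-severing cofilin, averaged 10.7 in intact mice, 10.6 at day 1, 10.3 at day 3 and 10.8 at day 7. Ube2c, a ubiquitin-conjugating enzyme of mitosis, averaged 4.84, 3.75, 3.46 and 4.60 in the same order. Ube2c, Mrgbp, Pde6d and Elk1 had no group mean above the intron limit. With the group means taken out, r of the 10 genes ran between 0.68 for H2ax and 0.95 for Mrgbp. These 10 genes were picked by their r over the same 12 arrays. That r includes the deviations within groups, so the values with group means taken out were partly fixed by the choice. The r values describe 12 arrays and carry no test.

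Marker genes of other lung cells were lower or higher than in intact mice on all 3 days. The 11 endothelial markers were all lower at day 1, day 3 and day 7, with median log2 differences of -1.48, -1.16 and -1.25. All 10 type 2 alveolar markers were lower on each day, with medians of -1.34, -0.95 and -1.52. Of 12 fibroblast markers 12 were lower at day 1, 11 at day 3 and 12 at day 7, with medians of -1.24, -1.01 and -0.84. Among 13 markers of T and NK cells 9 were lower on each day (medians -0.23, -0.17 and -0.29), and Gzma, a granzyme of these cells, averaged 3.89 ± 0.74 at day 3 and 5.81 ± 0.74 in intact mice (SD, n = 3 each). Of 11 monocyte markers 9 were lower at day 1, 7 at day 3 and 7 at day 7 (medians -0.28, -0.46 and -0.37), and Ly6c2, a surface protein of inflammatory monocytes, averaged 7.28 ± 0.69 at day 3 and 9.19 ± 0.56 in intact mice. B cell markers were lower for 6, 5 and 6 of 7 genes on days 1, 3 and 7, with medians of -0.31, -0.11 and -0.14. Neutrophil markers were higher for 11, 10 and 12 of 14 genes on days 1, 3 and 7, with medians of 0.96, 0.93 and 1.23. The eosinophil list mean was 5.02 to 6.15 in intact mice and 4.65 to 5.45 at day 1. It was 5.17 to 6.31 at day 3 and 5.60 to 7.10 at day 7. Of 7 eosinophil markers 1 was higher at day 1, 4 at day 3 and 5 at day 7 (medians -0.64, 0.21 and 0.51), and the others were lower. The receptor gene Ccr3 averaged 5.51 ± 0.67 at day 3 and 3.37 ± 0.31 in intact mice. Ear6, of the same list, went the other way, with 6.91 ± 0.49 at day 3 and 7.29 ± 0.14 in intact mice. Of all these markers, 1 fibroblast marker at day 3, and 1 fibroblast and 1 type 2 marker at day 7, passed adjustment against intact mice (limma). Over all probe sets, 0.0045% passed at day 3 and 0.018% at day 7.

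On single arrays, these lists and the histone genes were measured side by side. Day 1 replicate 2, where the histone mean differed from the intact mean by -0.82, also had the lowest endothelial list mean of the series, 3.94, and the lowest type 2 and fibroblast list means, 4.13 and 3.13. Day 3 replicate 1, where the histone mean was lowest of all at a difference of -0.97, had an endothelial list mean of 6.32, within the intact range of 5.95 to 6.98. At day 7 the histone mean differed from the intact mean by 0.24, 0.15 and -0.20 on the 3 arrays and the endothelial mean by -1.38, -0.81 and -1.96, while 12 of the 15 H2B genes had a lower day 7 mean. The part of these cells in the histone values was not tested.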

How the data were processed

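RNA of 12 samples was extracted with QIAZOL, amplified and biotin-labelled, and hybridised to Clariom S mouse arrays, per the labels' protocols. The deposited values are log2 signals that the authors normalised with RMA in Transcriptome Analysis Console, per the submitters' processing notes; versions and genome build are not given in the sources used here. Of 28846 deposited probe sets, 6640 controls were left out and 22206 were tested, of which 19572 had 1 gene symbol and 2634 none in the platform annotation used.

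All 12 arrays were fitted in one model by group with limma 3.58.1 (lmFit and eBayes) in R 4.3.3, with Benjamini-Hochberg adjustment over all 22206 probe sets and a threshold of 0.05. Tables and figures were made with Python 3.11.15, pandas 2.3.3 and matplotlib 3.10.9. The fit was tested on simulated data. The members and gene lists were chosen with earlier results of these data known. Members were named in the text if they had one of the 4 smallest F-test p-values of their type, passed a threshold, or needed a comment on their class; of each other list, up to 3 genes with the smallest F-test p-values could be named. The 10 genes most like the members' mean, by Pearson's r over the 12 arrays, were also named. H2ac15, H1f2, H2bc4, H2ac20, H4c9 and other members outside this rule were named after their values were seen, as extremes, exceptions or partners of a pair. Since the arrays hold 3 samples a group, that number limits the precision.

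Alternatives covered normalisation, a filter on dim probe sets, moderation, the samples in the fit, a replicate block, array weights, the choice of members and each array left out. Samples that share a replicate number did not deviate together: over 18 such pairs of arrays, correlations of deviations from the group means ran between -0.24 and 0.26, with 3 above 0.1, so the numbers were not taken to pair samples.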

Additional observations from a re-analysis of the deposited data

How the results depend on the processing

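The direction of the members' median difference was the same under every alternative for 5 of the 6 comparisons; at day 7 against intact mice it lay between -0.02 and 0.21. The medians ran between -0.62 and -0.30 at day 1 against intact mice, -0.93 and -0.64 at day 3 against intact mice, -0.48 and -0.21 at day 3 against day 1, 0.68 and 1.07 at day 7 against day 3, and 0.30 and 0.72 at day 7 against day 1. Array weights gave the 0.68 and the 0.30, and leaving out the 3 weakly separating arrays gave 0.32 for day 7 against day 1.

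Counts of probe sets past the threshold were unstable. Against intact mice, array weights called 43 at day 1, 298 at day 3 (26 members) and 402 at day 7 (1 member, H1f3), and without the weakly separating arrays they were 71, 252 (10 members) and 280. At day 3 against intact mice, quantile normalisation and moderation with a trend each called 4, while the filter on dim probe sets and the fit of the 2 groups alone called 0. At day 7 against intact mice the filter called 0 and the fit of the 2 groups 48. Array weights called 7 at day 7 against day 3 (3 members), and leaving out the weakly separating arrays called 4 there and 6 at day 3 against day 1. With 1 array left out at a time, calls ran between 0 and 12 at day 1, 0 and 7 at day 3, and 0 and 18 at day 7 against intact mice, 0 and 3 at day 3 against day 1 and 0 and 3 at day 7 against day 3, and no member was called. The replicate block called 0 at day 3 and 8 at day 7 against intact mice, with no member among them, and changed no other call. The cause of these changes was not tested.

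Restricting the members to the 37 above background in at least 1 group, an alternative chosen after seeing the data, gave a median of -0.93 at day 3 against intact mice. Of these 37, 23 were above background in all 4 groups. The rest passed only through some groups, so that a larger difference was partly built into this choice and the median supports nothing. Between arrays of a group the members' median varied by 0.22 (pooled SD), and 17 members stayed below background in every group mean, where sizes of difference are uncertain.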

Other observations

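The location of the genes gave a further description. All 20 members of one block of chromosome 13 were lower at day 3 than in intact mice (median log2 difference -0.88), as were 24 of 25 in the other block (median -0.64) and all 8 on chromosome 3 (median -0.82). At day 7 against intact mice, 10 of 20, 17 of 25 and 6 of 8 of them were higher, with medians of 0.02, 0.07 and 0.14. The spread between members of a block was wider than that between blocks, with day 3 differences between -1.47 and -0.25 in the first block.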
